A study of Mus musculus with 5 samples.

Results

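A set of 9 genes of mitochondrial calcium uptake and of the outer membrane channel VDAC was followed in mouse atria that carry a change in the collagen receptor MRC2. They were taken by name: Mcu, Mcub, Smdt1, Micu2, Letm1, Slc8b1, Vdac1, Vdac2 and Vdac3. All 9 were found among the 57186 genes of the tables, and all 9 passed the expression filter that left 16412 tested genes. Atria of mice heterozygous for the E990G exchange in MRC2 (het, replicates 5, 6 and 7) were set against atria of wild-type mice (WT, replicates 7 and 8), by RNA sequencing of stranded polyA libraries. The 5 animals all belong to batch 2 of a series of 7 het and 8 WT mice aged 4 to 10 months, whose tissue was snap-frozen. Strain and sex are not given in the labels used here. Ddx3y, on the Y chromosome, had 3, 0 and 0 expected counts in het 5, 6 and 7, against 938 and 1 in WT 7 and 8, and Xist had 22 in WT 7 and 6117 or more in every other library. Total expected counts were 21410811 to 28353091 in het libraries and 17784601 to 24445791 in WT libraries. P-values measure the spread between these 5 libraries.

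Mitochondria take up calcium through a channel complex of the inner membrane, the uniporter, which is driven by the membrane potential. Mcu forms the pore, Smdt1 (also called EMRE) is the small membrane protein that metazoan pores need in order to conduct, and Micu2 is a calcium-sensing gatekeeper. Mcub is a relative of Mcu that lowers conductance when it joins the pore. Slc8b1 (NCLX) exchanges matrix calcium for sodium, and Letm1 is an inner membrane protein linked to cation exchange. The VDAC channels carry calcium, nucleotides and other metabolites across the outer membrane. In heart muscle this route couples calcium at each beat to the supply of ATP.

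The pore genes are shown first, since the kinship of Mcu and Mcub is visible in the codons of the pore. The stretches below come from the GENCODE M21 transcripts Mcu-202 and Mcub-201. They lie in exon 6 of each gene, in the coding sequence, at chr10:59454985-59455056 (minus strand) and chr3:129916978-129917049 (minus strand) of build GRCm38. Capitals mark the codons of the DIME motif that lines the mouth of the pore.
Mcu: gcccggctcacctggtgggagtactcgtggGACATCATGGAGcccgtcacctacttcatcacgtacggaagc
Mcub: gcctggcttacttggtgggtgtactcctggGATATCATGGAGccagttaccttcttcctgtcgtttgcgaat
Of the 72 bases, 18 differed between the stretches, and 1 of the 12 motif bases did.

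The atria held far more transcript of the VDAC genes and of Smdt1 than of the pore gene. Levels are given first in TPM, which corrects for transcript length and allows genes to be compared with each other. In het atria the mean TPM fell in the order Vdac1, Smdt1, Vdac2, Vdac3, Micu2, Letm1, Slc8b1, Mcu and Mcub. In WT atria the order was the same except that Smdt1 (473 ± 53.1 TPM, SD, n = 2) stood level with Vdac1 (467 ± 38.1 TPM, SD, n = 2), and their ranges overlapped. In both groups the range of Vdac2 overlapped that of Vdac3 and the range of Slc8b1 overlapped that of Mcu, so the order within these pairs is not beyond their spread. TPM divides by an effective length, shorter than the transcript by about the fragment length. For Smdt1 it was 272 to 353 bases against a mean transcript length of 696, and for Vdac1 1538 to 1636 against 1972. The place of Smdt1 in the order rests on that correction.

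**Figure D1:**
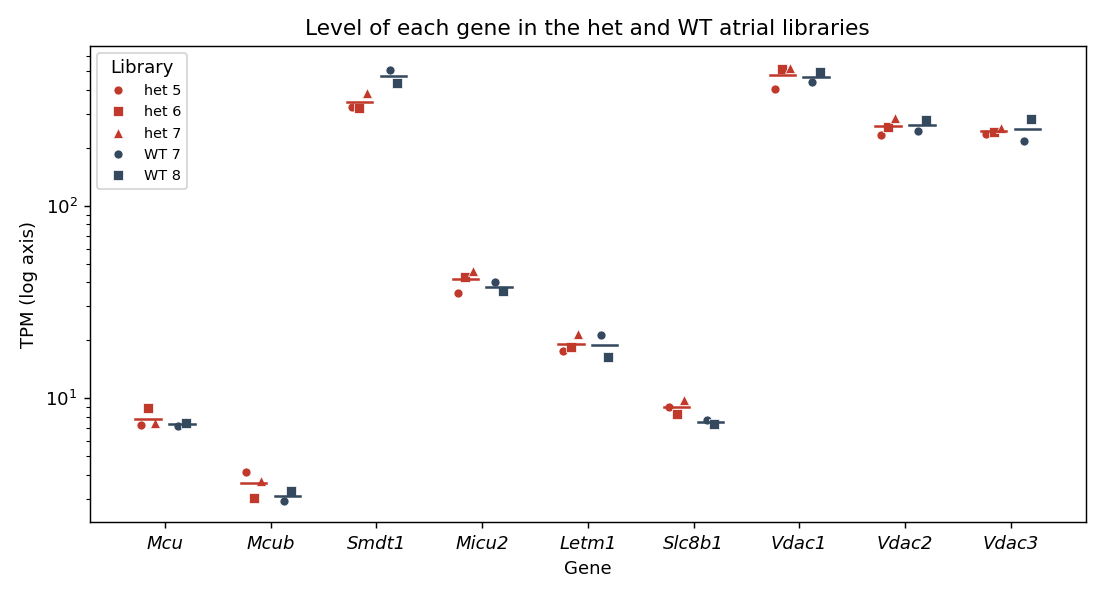
Level of each of the 9 genes in TPM (log axis) in the 3 het libraries (red) and the 2 WT libraries (dark blue); short lines are group means. Only Smdt1 (lower in het) and Slc8b1 (higher in het) have groups that do not overlap on this scale.

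Smdt1 was the 1 member that passed the test, and it was lower in het. It had 327, 321 and 387 TPM in het 5, 6 and 7, against 511 and 436 TPM in WT 7 and 8. Each het library lay below both WT libraries, and WT 7 was the highest. In TMM-scaled CPM the values were 114, 89.7 and 113 in het against 189 and 151 in WT, and the groups again did not overlap. The log2 fold change was -0.69 (SE 0.15), a fold of 0.62, with an edgeR quasi-likelihood adjusted p of 0.031 and expected counts of 2004 to 4614 per library. Without het 5, het 6, het 7 or WT 7 the call was lost (edgeR adjusted p = 0.058, 0.113, 0.068 and 0.097), and without WT 8 it remained (0.020). In the GENCODE M21 annotation Smdt1 overlaps Pheta2 on the same strand, and its expected counts were whole numbers in all 5 libraries.

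None of the other uniporter genes passed the test. Mcu, the pore, had 7.23, 8.89 and 7.41 TPM in het 5, 6 and 7, against 7.19 and 7.47 TPM in WT 7 and 8. WT 7 was the lowest library, WT 8 lay inside the het range, and the log2 fold change on counts was -0.08 (SE 0.15, edgeR adjusted p = 0.776). Mcub, the conductance-lowering relative, had 4.15, 3.04 and 3.70 TPM in het against 2.94 and 3.29 TPM in WT. Those ranges overlapped, and with 57 to 82 expected counts per library Mcub was the least precisely measured member (log2 fold change -0.01, SE 0.31, edgeR adjusted p = 0.983). Micu2, the gatekeeper, had 35.45, 42.8 and 46.1 TPM in het against 40.2 and 36.0 TPM in WT, again with overlap (log2 fold change -0.04, SE 0.12, edgeR adjusted p = 0.891).

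The exchangers were measured next. Slc8b1, the sodium-calcium exchanger that empties the matrix, had 8.98, 8.29 and 9.74 TPM in het against 7.70 and 7.36 TPM in WT. On the TPM scale each het library lay above both WT libraries, but in CPM the groups overlapped (22.2, 20.4 and 21.9 in het against 20.04 and 21.03 in WT). The log2 fold change on counts was 0.07 (SE 0.14, edgeR adjusted p = 0.808). Letm1, linked to cation exchange, showed the converse. Its CPM were 70.3, 63.5 and 83.3 in het against 84.2 and 92.9 in WT, with no overlap and het below WT (log2 fold change -0.29, SE 0.14, edgeR adjusted p = 0.216). Its TPM were 17.7, 18.5 and 21.5 in het against 21.4 and 16.3 in WT, where the groups overlapped.

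The Letm1 transcript Letm1-206 is 747 bases long and annotated as a processed transcript. It held 36.8, 42.4 and 34.1 expected counts in het 5, 6 and 7, against 51.3 and 0 in WT 7 and 8, and it took 24.4, 31.1 and 16.1% of the gene's TPM in het against 23.1 and 0% in WT. The coding transcript Letm1-201 alone had 12.8, 11.97 and 17.2 TPM in het against 15.3 and 15.7 TPM in WT, with overlap (exact two-sided permutation p = 0.6). With 3 against 2 libraries the smallest p of that exact test is 0.2, so no single comparison of this kind can pass 0.05.

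No VDAC gene passed the test. Vdac1, the most abundant of the 3 here, had 403, 512 and 523 TPM in het 5, 6 and 7, against 440.4 and 494 TPM in WT 7 and 8. Vdac2, which binds the death effector BAK, had 233, 256 and 286 TPM in het against 245 and 278 TPM in WT. Vdac3 had 236, 242 and 253 TPM in het against 218 and 281 TPM in WT. In each case the ranges overlapped, and het 5 was the lowest het library for all 3 genes. The log2 fold changes on counts were -0.16 (SE 0.15) for Vdac1, -0.22 (SE 0.14) for Vdac2 and -0.21 (SE 0.15) for Vdac3, with edgeR adjusted p of 0.561, 0.356 and 0.421. Vdac2 had no overlap in CPM (346, 361 and 371 in het against 375 and 463 in WT), and WT 8 was the highest library. Vdac3 has a processed pseudogene, Vdac3-ps1, which held 15.4 to 41.4 expected counts. The Vdac3 counts were fractional in all 5 libraries. RSEM's model splits reads shared between loci, and which loci shared reads with Vdac3 was not tested.

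As a list, 0 of the 9 genes were higher and 1 was lower in het by edgeR (11.1% lower), where 2.66% of all tested genes were called lower, 2.99% higher and 5.64% in either direction. At an unadjusted p under 0.05 edgeR gave 1 of the 9, also Smdt1, where 24.7% of all tested genes passed. At an adjusted p under 0.05 DESeq2 called 0 higher and 1 lower (4.75% of all genes lower and 5.28% higher), and limma-voom called 0 higher and 1 lower (1.35% lower and 1.44% higher). The median log2 fold change of the 9 genes was -0.16, against -0.001 over all tested genes, and 8 of the 9 estimates were below 0, where 50.1% of all were. In CPM the groups did not overlap for 3 of the 9 genes (33.3%, where 42.3% of all tested genes did not overlap), and in TPM for 2 (22.2%, where 38.9% did not). With limma-trend on log2(TPM + 1), Smdt1 was at -0.46 (adjusted p = 0.146) and 0 of the 9 genes were called, where 0.0487% of all were. On that scale Vdac2 (-0.019) and Vdac3 (-0.026) were also below 0. Mcu (0.082), Mcub (0.164), Micu2 (0.113), Letm1 (0.035), Slc8b1 (0.228) and Vdac1 (0.029) were above 0, so the lean below 0 was not kept there.

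**Figure D2:**
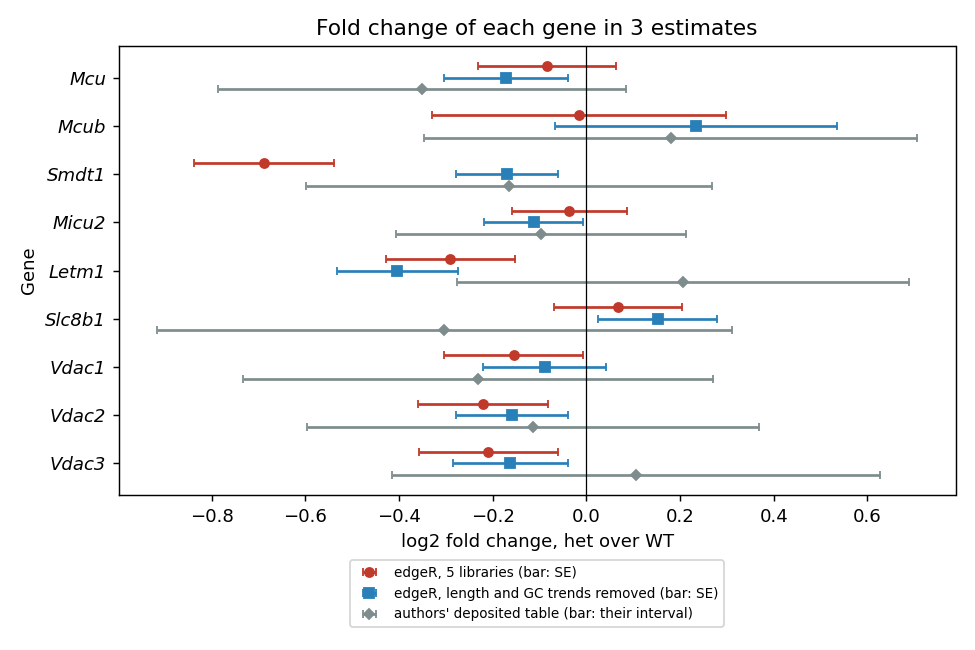
Log2 fold change of het over WT for each gene, from edgeR on the 5 libraries (red, bars 1 SE), from edgeR after removal of length and GC trends (blue, bars 1 SE) and from the authors' deposited table (grey, bars the interval given there). Smdt1 stands at -0.69 in the first estimate and at -0.17 in the second.

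Fold changes in these libraries moved with transcript length, and Smdt1 is short. Its mean transcript length was 696 bases, in the shortest of 10 equal length classes of tested genes, where the median log2 fold change was -0.38 and 9.37% of genes were called lower. Its GC content of 58.3% lies in the highest of 10 GC classes. With a trend on length removed from each library Smdt1 stood at -0.30 on the log2 scale (SE 0.13, edgeR adjusted p = 0.302). Without length and GC trends it stood at -0.17 (SE 0.11, edgeR adjusted p = 0.611). Both fits called 0 of the 9 genes. The first called 0.0914% of all tested genes (0.0548% lower and 0.0366% higher), and the second called 0%, with 11.2% at an unadjusted p under 0.05. Mean fragment lengths, read from the gap between transcript length and effective length, were 376, 429 and 394 bases in het 5, 6 and 7, against 342 and 411 bases in WT 7 and 8. WT 7, with the shortest fragments, had the highest Smdt1 (189 CPM, 511 TPM). Het 6, with the longest, had the lowest (89.7 CPM, 321 TPM). In between, het 5, het 7 and WT 8, in order of fragment length, had 114, 113 and 151 CPM. TPM is itself divided by an effective length that fell as fragments lengthened (353 bases in WT 7 to 272 in het 6 for Smdt1). The part of fragment length in the result was not tested.

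Letm1 lay on the other side of that trend. It is long (4318 bases on average), and genes of its length class had a median log2 fold change of 0.24, whereas Letm1 stood at -0.29. With the length trend removed it was at -0.50 (SE 0.14, unadjusted p = 0.0032, edgeR adjusted p = 0.129), and with both trends removed at -0.40 (SE 0.13, edgeR adjusted p = 0.252). It did not pass the test in any of these fits. Mcub, at -0.01, lay above the median of its length class (-0.26), and Micu2, at -0.04, lay at that of its own (-0.04).

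**Figure D3:**
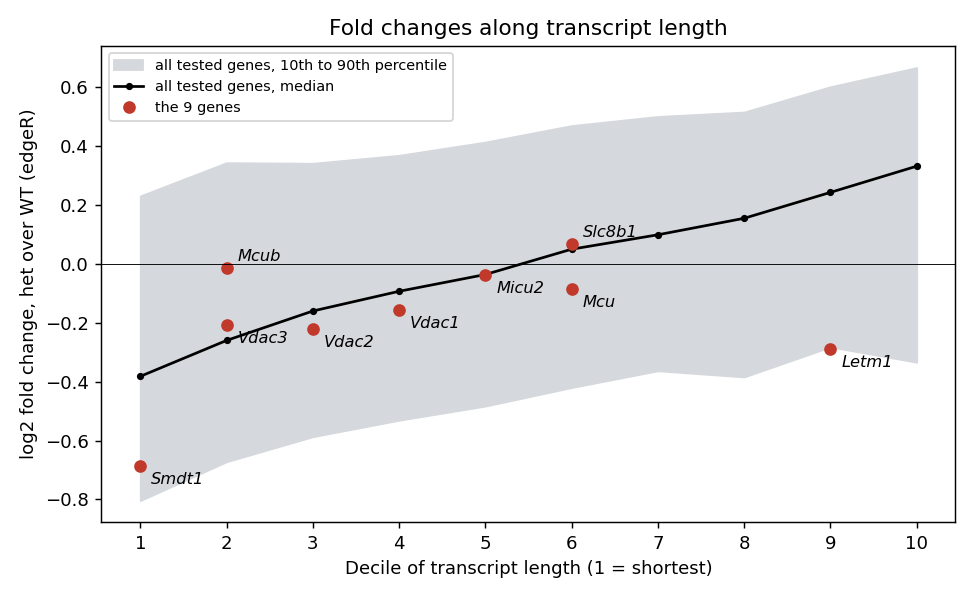
Log2 fold change of het over WT (edgeR) by transcript length class (10 classes, shortest first); the line and the band give the median and the 10th to 90th percentile of all tested genes, and red points are the 9 genes. Smdt1 (-0.69) lies under the median of the shortest class (-0.38), and Letm1 (-0.29) lies under that of class 9 (0.24).

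The authors' deposited table compares het and WT atria over 14927 genes, and the animals in it and the level of its intervals are not given in the sources used here. In the authors' deposited table Smdt1 had a log2 fold change of -0.165, with an interval of -0.60 to 0.27. Mcu stood at -0.35 (interval -0.79 to 0.08) and Slc8b1 at -0.30 (interval -0.92 to 0.31) in the authors' deposited table. Letm1 (0.21), Mcub (0.18) and Vdac3 (0.11) were above 0 in the authors' deposited table, while Vdac1 (-0.23), Vdac2 (-0.11) and Micu2 (-0.10) were below. Every interval of the 9 genes in the authors' deposited table included 0. The table called 0 genes (0%) at an adjusted p under 0.05, with 836 (5.6%) at an unadjusted p under 0.05, none of them a member. The median of the 9 genes was -0.11, against -0.04 over all genes of the authors' deposited table.

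Ratios within the uniporter set each library against itself. They do not set genes of 1 length against each other. Smdt1 is in length class 1 (class median edgeR log2 fold change -0.38) and Mcu in class 6 (0.05). The part of the length trend in their ratio was not tested. Smdt1 was present at 45.3, 36.1 and 52.2 times the TPM of Mcu in het 5, 6 and 7, against 71.0 and 58.3 times in WT 7 and 8. Every het ratio lay below both WT ratios (44.5 ± 8.10 in het, SD, n = 3, and 64.7 ± 9.00 in WT, SD, n = 2; exact two-sided permutation p = 0.2, the smallest possible, and 0.96 adjusted over 6 ratios and shares). The difference in means (het minus WT) was -20.2. It was -11.7 from expected counts per mean transcript length, where the p was the same. That length is RSEM's isoform-weighted gene length averaged over the 5 libraries. The ratio of Micu2 to Mcu was 4.90, 4.81 and 6.22 in het against 5.59 and 4.82 in WT. The ratio of Mcub to Mcu was 0.574, 0.342 and 0.499 in het against 0.409 and 0.440 in WT. Both of those ratios overlapped between groups (exact two-sided permutation p = 1 and 0.8).

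The make-up of the VDAC pool overlapped between the groups. Vdac1 held 46.2, 50.7 and 49.2% of the summed VDAC TPM in het 5, 6 and 7, against 48.8 and 46.9% in WT 7 and 8. Vdac2 held 25.3 to 27.0% in het and 26.4 to 27.1% in WT, and Vdac3 held 23.8 to 27.1% in het and 24.2 to 26.7% in WT. All 3 shares overlapped between groups (exact two-sided permutation p = 0.8 for each). From expected counts per mean transcript length in place of TPM, the Vdac2 share differed by -0.69 percentage points (het minus WT), against -0.40 from TPM. On that measure the groups did not overlap (exact two-sided permutation p = 0.2, the smallest possible). The summed VDAC level was 872, 1009 and 1062 TPM in het against 903 and 1054 TPM in WT (exact two-sided permutation p = 1).

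**Figure D4:**
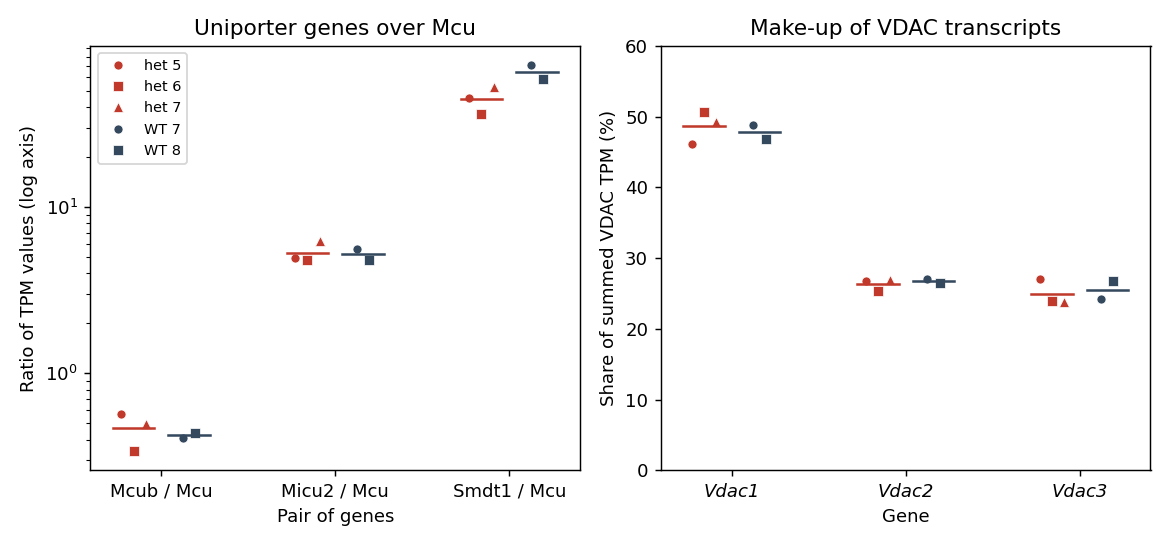
Left, TPM of Mcub, Micu2 and Smdt1 divided by that of Mcu in each library (log axis); right, the share of each VDAC gene in the summed VDAC TPM. Red points are het, dark blue points WT and short lines group means; the ratio of Smdt1 to Mcu is 36.1 to 52.2 in het and 58.3 to 71.0 in WT.

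Transcripts of the members were compared because RSEM also splits each gene by isoform. Of 51 listed transcripts 26 passed the filter, and edgeR called 0 of them among 38651 tested transcripts, where it called 0 in all (0%). At an unadjusted p under 0.05 there were 2 of the 26, both of Smdt1, where 12.7% of all tested transcripts passed. Shares of the gene (isoform percent) did not overlap between groups for 4 of the 26 (15.4%, where 24.8% of all tested transcripts did not). These 4 were Slc8b1-202 and Vdac1-201, Vdac1-202 and Vdac1-204.

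Smdt1 was read mostly from its full coding transcript Smdt1-201, with 89.8, 90.2 and 90.04% of the gene in het 5, 6 and 7, against 86.4 and 91.0% in WT 7 and 8. Its coding transcript alone had 294, 289 and 348 TPM in het against 441 and 396 TPM in WT, and those groups did not overlap (exact two-sided permutation p = 0.2). A second transcript, Smdt1-204, annotated for nonsense-mediated decay, took 7.49, 8.88 and 8.18% in het against 11.7 and 7.14% in WT. It lacks the last 49 bases of exon 1 (chr15:82346221-82346269, plus strand, GRCm38), a length that is not a multiple of 3. The difference is shown in the GENCODE M21 sequences, with the missing segment in capitals in the first and the bases either side of the join in capitals in the second.
Smdt1-201: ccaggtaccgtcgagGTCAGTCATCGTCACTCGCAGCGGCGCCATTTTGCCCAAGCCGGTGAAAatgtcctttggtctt
Smdt1-204: ccaggtaccgtcgaGAtgtcctttggtctt

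Slc8b1 was divided among the main transcript Slc8b1-201 and the coding transcripts Slc8b1-202 and Slc8b1-204. Slc8b1-202 took 17.7, 20.9 and 18.3% of the gene in het 5, 6 and 7, against 30.0 and 27.4% in WT 7 and 8. Each het library lay below both WT libraries (19.0 ± 1.70% in het, SD, n = 3, and 28.7 ± 1.79% in WT, SD, n = 2; exact two-sided permutation p = 0.2, the smallest possible). The counts behind these shares were 82.7, 88.8 and 112 in het against 137 and 92.7 in WT, and as a transcript Slc8b1-202 had a log2 fold change of -0.50 (SE 0.26, edgeR adjusted p = 0.487). Slc8b1-202 lacks exons 14 and 15 of Slc8b1-201, a coding segment of 149 bases that is not a multiple of 3 (within chr5:120530316-120531148, plus strand, GRCm38). The GENCODE M21 sequences show that segment in capitals, and then the bases either side of the join.
Slc8b1-201: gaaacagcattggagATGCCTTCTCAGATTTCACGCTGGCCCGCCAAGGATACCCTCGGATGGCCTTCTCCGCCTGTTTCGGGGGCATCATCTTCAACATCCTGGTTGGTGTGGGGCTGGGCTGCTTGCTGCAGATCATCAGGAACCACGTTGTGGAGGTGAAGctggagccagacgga
Slc8b1-202: gaaacagcattggaGCtggagccagacgga
The main transcript Slc8b1-201 took 71.6, 63.9 and 68.5% in het against 66.2 and 52.2% in WT, where the groups overlapped. Slc8b1-204 took 3.18, 15.3 and 8.62% in het against 3.86 and 20.3% in WT, also with overlap, on 15.6 to 72.2 expected counts.

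**Figure D5:**
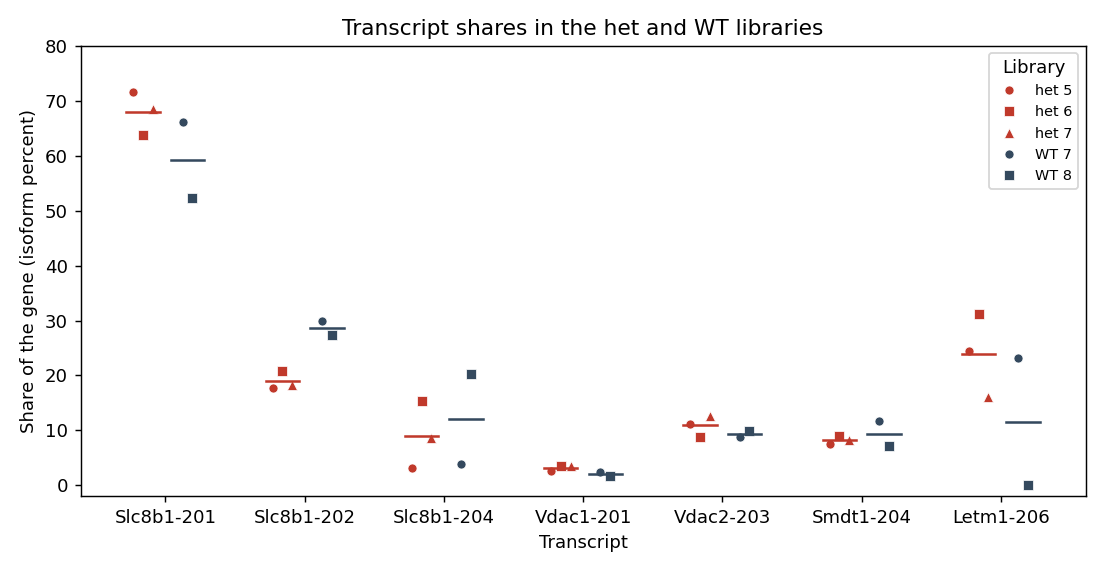
Share of the gene (isoform percent) held by 7 transcripts in each library; red points are het, dark blue points WT and short lines group means. Slc8b1-202 lies at 17.7 to 20.9% in het and at 27.4 to 30.0% in WT, while Slc8b1-204 and Letm1-206 spread widely within groups.

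Vdac1 was read almost wholly from Vdac1-202, which took 95.6, 95.4 and 94.6% in het 5, 6 and 7, against 96.4 and 97.6% in WT 7 and 8. The shorter coding transcript Vdac1-201 took 2.52, 3.54 and 3.56% in het against 2.36 and 1.72% in WT, with a log2 fold change of 0.51 as a transcript (SE 0.31, edgeR adjusted p = 0.564). Both shares were apart between groups but by under 2 percentage points in the mean of the main transcript (exact two-sided permutation p = 0.2, and 0.9 adjusted over the 9 main transcripts). Micu2 and Vdac3 each came from a single transcript at 97.8% or more in every library. For Mcub, Mcub-201 took 51.4, 100 and 60.6% in het against 42.3 and 81.5% in WT, shares that rest on 57 to 82 expected counts of the gene.

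Partner genes were described from 5 lists of 45 genes, all tested, of which edgeR called 1 higher and 3 lower, where 2.99% of all tested genes were called higher and 2.66% lower. Their median log2 fold change was -0.06. Over all tested genes 24.7% passed an unadjusted p under 0.05 by edgeR, in either direction. DESeq2 called 5.28% of all genes higher and 4.75% lower, and limma-voom 1.44% higher and 1.35% lower. Among 9 uniporter regulators and inner membrane calcium genes edgeR called 0 (1 higher and 1 lower at an unadjusted p under 0.05; DESeq2 called 1 higher and limma-voom 0). Ghitm, an inner membrane protein, had 415 ± 21.1 TPM in het (SD, n = 3) and 327.5 ± 46.3 TPM in WT (SD, n = 2), with a log2 fold change on counts of 0.06 (SE 0.14, edgeR adjusted p = 0.828). Spg7, a subunit of the matrix protease that trims Smdt1, had 39.05 ± 4.72 TPM in het and 42.4 ± 3.25 TPM in WT.

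Among 13 outer membrane partners of VDAC edgeR called 0 higher and 2 lower in het, where 2.66% of all genes were called lower. At an unadjusted p under 0.05 there were 0 higher and 6 lower, where 24.7% of all genes passed in either direction. DESeq2 called 2 lower and limma-voom 1, where they called 4.75% and 1.35% of all genes lower. Their median log2 fold change was -0.28, and 12 of the 13 estimates were below 0, where 50.1% of all were. Bax, an effector of outer membrane permeabilization, had 52.0 ± 1.58 TPM in het (SD, n = 3) and 69.9 ± 7.91 TPM in WT (SD, n = 2), and fell by 0.60 on the log2 scale (SE 0.14, edgeR adjusted p = 0.034). Tomm40, the import pore, fell by 0.51 (SE 0.13, edgeR adjusted p = 0.045). Tspo had 138 ± 17.6 TPM in het and 154 ± 25.6 TPM in WT, and Samm50, of the sorting complex, had 61.3 ± 6.87 and 75.9 ± 8.87 TPM. Bax (900 bases) and Tomm40 (1530 bases) are short. Without length and GC trends they stood at -0.12 and -0.16. That fit called 0 of the 13, and 0% of all genes.

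Contact sites between the endoplasmic reticulum and mitochondria gave 1 higher and 1 lower of 14 by edgeR, where 2.99% of all genes were called higher and 2.66% lower. At an unadjusted p under 0.05 there were 4 higher and 1 lower, where 24.7% of all genes passed in either direction. DESeq2 called 2 higher and 1 lower, where it called 5.28% and 4.75% of all genes. limma-voom called 1 higher and 0 lower (1.44% and 1.35% of all genes), so the call on Fis1 was lost with limma-voom. Pdzd8, a tether, rose by 0.59 on the log2 scale (SE 0.14, edgeR adjusted p = 0.034), and Fis1, an outer membrane fission adaptor, fell by 0.62 (SE 0.14, edgeR adjusted p = 0.032). Without length and GC trends they stood at 0.25 and -0.17, and neither was called, where that fit called 0% of all genes. Hspa9, which bridges VDAC1 to the calcium release receptors, had 187 ± 26.5 TPM in het and 162 ± 21.6 TPM in WT, and the fusion protein gene Mfn2 had 184.5 ± 17.1 and 171.5 ± 0.283 TPM. Of 5 calcium-regulated carriers edgeR called 0 (1 higher at an unadjusted p under 0.05; DESeq2 and limma-voom 0), with Slc25a12 at 95.0 ± 13.9 TPM in het and 97.1 ± 4.51 TPM in WT, and Slc25a23 at 39.2 ± 5.41 and 34.7 ± 5.31 TPM. Of 4 genes for nucleotide carriers and the permeability transition edgeR called 0 (2 lower at an unadjusted p under 0.05; DESeq2 called 1 lower and limma-voom 0). The adenine nucleotide carrier gene Slc25a4 was at 2115 ± 68.0 TPM in het and 2647 ± 216 TPM in WT, and the phosphate carrier gene Slc25a3 at 934 ± 146 and 1007 ± 108 TPM.

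Summed marker levels also differed among these 5 libraries. Summed TPM of 6 atrial cardiomyocyte markers was 68846 to 80187 in het and 88517 to 98448 in WT, against 133 to 535 in het and 237 to 290.1 in WT for 4 ventricular ones, so the labelled tissue carried its defining markers. Nuclear-encoded respiratory chain genes (20) summed to 17109 to 20265 TPM in het and 22396 to 22623 TPM in WT. EdgeR called 6 of these 20 lower and 0 higher, where 2.66% of all genes were called lower. limma-voom called 4 of them lower, where it called 1.35% of all genes lower. Without length and GC trends their median log2 fold change was -0.22, against -0.45 with them. That fit called 0 of the 20, and 0% of all genes. Mitochondrially encoded genes (9) summed to 170801 to 235478 TPM in het and 200830 to 205711 TPM in WT, with overlap. EdgeR called 0 of these 9, and their median log2 fold change was 0.02. Macrophage markers (10) summed to 504 to 692 TPM in het and 399 to 416 TPM in WT, fibroblast markers (8) to 965 to 994 and 589 to 873 TPM, and skeletal muscle markers (5) to 816 to 1016 and 1442 to 1480 TPM. Endothelial markers (5) summed to 255 to 267 TPM in het and 204 to 205 TPM in WT, and erythroid markers (5) to 11766 to 19995 and 2048 to 8750 TPM. Adipocyte markers (5) summed to 13.8 to 114 TPM in het and 24.4 to 37.5 TPM in WT. Lep and Ucp1 among adipocyte markers, and Myh4 among skeletal muscle markers, were at 0 in at least 1 library. EdgeR called 2 of the atrial, 1 of the ventricular and 2 of the skeletal muscle markers lower, and none of these higher. It called 2 of the macrophage and 2 of the fibroblast markers higher, and 0 of the endothelial, erythroid or adipocyte markers. Of the 8 fibroblast markers 4 stood above 0 and 4 below, and limma-voom called 0 of them higher. Median log2 fold changes by edgeR were -0.48 for atrial, -0.29 for ventricular and -0.90 for skeletal muscle markers. They were 0.44 for macrophage, 0.17 for fibroblast, 0.23 for endothelial, 1.37 for erythroid and 0.27 for adipocyte markers. Over all tested genes 2.66% were called lower and 2.99% higher. The part of these differences in the member values was not tested, and in whole tissue fewer cells of a type and less RNA per cell cannot be told apart.

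Profiles most like those of the pore and of the main VDAC gene were found by the root mean square distance of centred log2 CPM over the 5 libraries, among 9489 other genes with a mean of at least 10 CPM. Nearest to Mcu were Tcf7l2 (distance 0.012), Utp3 (0.027) and Pop4 (0.029). Nearest to Vdac1 were Prune1 (0.023), Taf13 (0.025) and D030056L22Rik (0.025). Among the members Vdac2 came closest to Vdac1, at rank 94 (0.064), while Smdt1 was at rank 8479 (0.379), the farthest of the members ranked.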

How the data were processed

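Atrial RNA of 3 het and 2 WT mice, grouped by sample title, was analysed. Trim Galore, STAR and RSEM are among the tools listed per the submitters' processing notes, with GRCm39 as the build, limma and edgeR, and no version. Per the file headers the authors deposited RSEM expected counts per gene and transcript, not normalized, TPM values (corrected for length and depth), and isoform percent, the share of a gene held by each transcript. The authors' deposited table of their comparison holds log2 fold changes with intervals, a moderated t score and p-values, and its model and animals are not given in the sources used here.

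Expected counts were rounded and tested over all genes (or transcripts) that passed edgeR's expression filter, with TMM scaling, robust quasi-likelihood tests and Benjamini-Hochberg adjustment at 0.05. Each SE was taken from the fold change and its F statistic. The biological coefficient of variation was 0.18 for genes and 0.528 for transcripts. Total expected counts of 17784601 (WT 8) to 28353091 (het 7) per library set the precision. Length and GC trends were fitted per library with mgcv and entered as offsets, with GC content from GENCODE M21 transcripts for 98.4% of tested genes. Single values were compared by exact permutation over libraries. Alternatives were DESeq2, limma-voom, limma-trend on log2 TPM, other scalings and filters, and leaving out each library.

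Named were the 9 members, and from each partner list the called genes and the 2 of highest TPM. The other partner genes enter the counts and medians of their lists. Members and lists were chosen with earlier results of these data known. Genes that overlap others (Smdt1 and Mcu in GENCODE M21) may share reads. Labels do not tell whether reads were counted by strand. Counting by strand would not separate Smdt1 from Pheta2, which lies on the same strand. The code was tested on simulated data. Sequences and GRCm38 coordinates come from GENCODE M21, another build than the files use; the transcripts shown have the lengths the files give. Versions were 4.0.16 for edgeR, 1.42.0 for DESeq2 and 3.58.1 for limma, run in R 4.3.3, and 1.9.3 for mgcv.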

Additional observations from a re-analysis of the deposited data

How the results depend on the processing

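No paired analysis was possible because het and WT share only the replicate number 7. The count of members called was 1. It went to 0 with limma-trend on log2(TPM + 1) (0.0487% of all genes called) or log2(TPM + 0.1). The count was also 0 with the length trend removed (0.0914% of all genes called), and with length and GC trends removed (0%). It ran from 0 to 1 with each library left out. Smdt1 was then at -0.83 to -0.51, past the threshold only without WT 8 (edgeR adjusted p 0.020 to 0.113), and at -0.46 with either TPM pseudocount. Over DESeq2, limma-voom, the other scalings and the other filters Smdt1 stayed called, from -0.73 to -0.64. Fits without WT 7 or WT 8 hold 1 WT library, assumed to vary like the het libraries.

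Of the 9 estimates, those of Mcub, Micu2, Mcu, Letm1, Vdac1 and Vdac3 changed sign under an alternative, none past the threshold; the cause was not tested. Mcub went to 0.031 with library size alone, 0.033 with every gene with a count, 0.024 with limma-voom, 0.164 and 0.205 on TPM with pseudocounts 1 and 0.1, and 0.227 and 0.234 with the length trend and both trends removed. Micu2 went to 0.009, 0.013, 0.113 and 0.115 with library size alone, every gene with a count, and the TPM pseudocounts. On TPM with pseudocounts 1 and 0.1, Mcu went to 0.082 and 0.091, Letm1 to 0.035 and 0.037, and Vdac1 to 0.029 in both. With a library left out Mcu ran from -0.174 to 0.025, Mcub from -0.221 to 0.227, Micu2 from -0.074 to 0.025, Vdac1 from -0.296 to 0.018 and Vdac3 from -0.413 to 0.046.

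With every transcript with a count, 1 member transcript (Smdt1-201) was called. With a library left out, het minus WT ran from -0.004024 to 0.112 for Mcub to Mcu, -0.34 to 0.49 for Micu2 to Mcu, and -26.5 to -13.8 for Smdt1 to Mcu. It ran from -0.11 to 2.15 percentage points for the Vdac1 share, -0.72 to 0.11 for Vdac2 and -1.75 to 0.76 for Vdac3. With all libraries, Smdt1 to Mcu was at -11.7 from expected counts per mean transcript length, against -20.2 from TPM. Main transcript shares without overlap between groups numbered 1 with all libraries, and 1, 4 and 1 without het 5, het 6 and het 7. With a WT library left out, the only WT value that remains has no range, so no count is given. No share over all transcripts is given for the sets with a library left out, so no difference is read from these counts. Partner genes were recomputed only with length and GC trends removed. Low counts limit what can be said of Mcub.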
